A study of Mus musculus with 6 samples.

Results

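The genes described here are 10 immediate early and dissection stress genes, Fos, Fosb, Jun, Junb, Egr1, Ier2, Atf3, Dusp1, Btg2 and Klf2. They were taken by name from the 24389 genes listed for every library, after Ensembl identifiers had been paired with mouse symbols, and all 10 were found. They were followed in E13.5 mouse dorsal pancreas, the bud that forms most of the endocrine tissue, in 3 Bicc1 knockout (KO) libraries, called KO 1 to 3, and 3 wild-type (WT) libraries, called WT 1 to 3. The Bicc1 product, Bicaudal C1, binds RNA. Embryos of both genotypes came from a mixed C57BL/6 and ICR background, and the buds were frozen before RNA extraction. The labels do not describe the knockout allele. They do not say whether a library held 1 embryo or a pool, or whether WT embryos were littermates of KO embryos, so the p-values given here cover the spread among these 6 samples alone, and that spread may be technical.

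Immediate early genes are transcribed within minutes of a growth factor, a stress or a mechanical stimulus, without new protein synthesis. Signals through ERK, p38 and cAMP reach factors already bound at their promoters, such as serum response factor and CREB, and the transcripts are then removed quickly. The same genes respond when tissue is cut, warmed or left waiting, and for this reason they are often read as a gauge of how samples were handled. Some also have a part in normal embryos, where Jun, Egr1, Btg2 and Klf2 are expressed in growing or differentiating cells.

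The targeted gene agreed in direction with the labels, with values of 3.96, 4.91 and 4.48 in KO 1 to 3, against 19.7, 19.5 and 18.2 in WT 1 to 3, so the KO mean was 23.3% of the WT mean. The largest contrast between the libraries, the first principal component of the 13911 genes tested (57.3% of the variance), did not follow genotype. It placed KO 1, KO 2 and WT 3 on one side and KO 3, WT 1 and WT 2 on the other. GC content went with it. Across genes, Spearman's rho of GC content with the deviation of each gene was 0.50, 0.61 and -0.19 for KO 1 to 3, and -0.56, -0.66 and 0.40 for WT 1 to 3. Genes are not independent replicates, so these values describe the libraries only. The deposited values are a signal per gene in a unit that is not stated, with a floor of 0.01. Depth is unknown, and levels are compared between libraries for 1 gene and not between genes.

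No immediate early gene passed the test of KO against WT. A gene was tested where its mean over the 6 libraries was at least 1, which held for Jun, Egr1, Ier2, Dusp1, Btg2 and Klf2. Fos, Fosb, Junb and Atf3 lay below that mean. Of the 6 tested, 0 had an adjusted p under 0.05 in limma with Benjamini-Hochberg adjustment over all genes, as against 0.0144% of all genes tested. At an unadjusted p of 0.05 the limma count was 1, Dusp1, where 5.89% of all genes tested were called as higher and 4.36% as lower. Over all 10 genes, 7 averaged higher in KO. The median difference of KO minus WT was 0.045 on the log2(value + 1) scale, beside a median of 0.014 over all genes tested, and it was -0.008 without KO 2. Every KO value lay above every WT value in 3 of the 10 genes (Fos, Fosb and Dusp1) and below it in 1 (Klf2). Among all genes tested, 7.67% were apart in the first way, 8.77% in the second and 16.4% in either. Among genes with a mean under 1, these shares were 7.55% and 3.08%. Since 3 KO and 3 WT values allow no exact p below 0.1, none was computed for single genes.

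**Figure D1:**
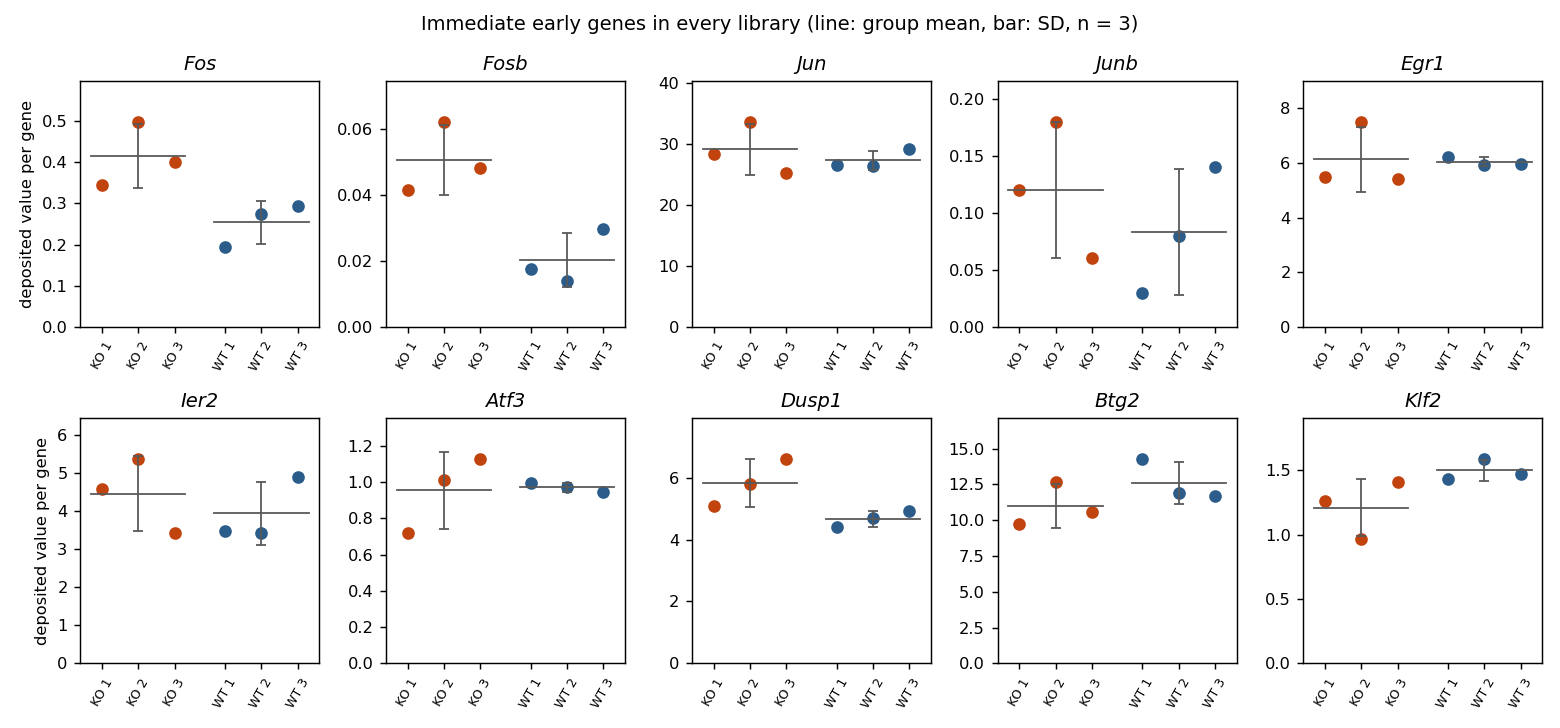
Deposited value of each immediate early gene (vertical axis, authors' unit, from 0) in KO 1 to 3 (left, orange) and WT 1 to 3 (right, blue), with group means and SD, n = 3. The 3 KO points lie above the 3 WT points in Fos, Fosb and Dusp1 and below them in Klf2, and the groups overlap in the other 6 genes.

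Fos and Fosb encode leucine zipper proteins that pair with Jun proteins to form the AP-1 transcription factor, and they are the genes most often used as markers of recent stimulation. Fos was 0.345, 0.498 and 0.401 in KO 1 to 3, against 0.195, 0.275 and 0.293 in WT 1 to 3. Every KO library was higher than every WT library, although the lowest KO value and the highest WT value were close. The Fos means (± SD, n = 3 each) were 0.415 ± 0.0771 for KO and 0.254 ± 0.0523 for WT, a ratio of 1.63. Of the genes with a mean under 1, 13.6% had a ratio of KO to WT means at least this high. Fosb was 0.0413, 0.0620 and 0.0482 in KO 1 to 3, against 0.0175, 0.0138 and 0.0295 in WT 1 to 3. These values lie near the floor of 0.01, in KO and in WT alike, so the Fosb ratio of 2.49 rests on very little signal. The order of the libraries was nearly the same in both genes, with KO 2 highest, then KO 3, KO 1 and WT 3.

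The test did not separate Fos or Fosb from the rest when the filter was lifted. With no filter and a pseudocount of 0.1, a setting chosen after the values were seen, the log2 difference of Fos was 0.54 (SE 0.181) with an unadjusted p of 0.0225 and an adjusted p of 0.513 in limma. That of Fosb was 0.32 (SE 0.087), with an unadjusted p of 0.00837 and the same adjusted p of 0.513. In this fit 5.51% of all 24389 genes were higher and 3.76% lower at an unadjusted p of 0.05, and 0.00410% passed at an adjusted p of 0.05. Over the settings tried, the adjusted p ran from 0.252 to 0.907 for Fos and from 0.225 to 0.907 for Fosb. As every KO value of Fos exceeded every WT value, its difference within each side of the first component could only be positive. KO 1 and KO 2 exceeded WT 3 by 0.135, and KO 3 exceeded WT 1 and WT 2 by 0.183, both on the log2(value + 1) scale. For Fosb, where the same holds, these differences were 0.031 and 0.046.

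The promoters of the 4 genes whose groups did not overlap are shown, since these are the genes in which KO and WT libraries stood apart. Each sequence is the 250 bases before the transcription start from RefSeq, build GRCm38.p6, read 5′ to 3′ on the strand of the gene. Windows were given for 8 of the 10 genes, and for Egr1 and Ier2 none was used here. Capitals mark TGACG and its reverse complement CGTCA, the core of the CREB binding site, and TATAAA, the TATA box. They lie at chr12:85473640-85473889 (plus strand) for Fos, chr7:19310046-19310295 (minus strand) for Fosb, chr17:26508473-26508722 (minus strand) for Dusp1 and chr8:72318812-72319061 (plus strand) for Klf2.
Fos: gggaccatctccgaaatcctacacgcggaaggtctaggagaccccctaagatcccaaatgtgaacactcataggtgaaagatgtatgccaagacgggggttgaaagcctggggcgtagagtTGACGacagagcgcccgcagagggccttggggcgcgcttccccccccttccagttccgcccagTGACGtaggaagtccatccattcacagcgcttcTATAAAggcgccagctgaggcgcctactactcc
Fosb: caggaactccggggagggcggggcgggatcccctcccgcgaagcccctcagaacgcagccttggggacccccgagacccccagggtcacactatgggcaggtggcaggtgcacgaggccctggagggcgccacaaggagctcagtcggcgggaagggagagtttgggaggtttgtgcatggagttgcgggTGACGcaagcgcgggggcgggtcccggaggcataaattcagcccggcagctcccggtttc
Dusp1: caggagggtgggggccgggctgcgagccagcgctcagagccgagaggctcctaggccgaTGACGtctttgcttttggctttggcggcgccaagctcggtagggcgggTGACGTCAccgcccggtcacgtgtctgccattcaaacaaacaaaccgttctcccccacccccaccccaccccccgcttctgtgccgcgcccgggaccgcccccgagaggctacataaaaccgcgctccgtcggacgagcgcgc
Klf2: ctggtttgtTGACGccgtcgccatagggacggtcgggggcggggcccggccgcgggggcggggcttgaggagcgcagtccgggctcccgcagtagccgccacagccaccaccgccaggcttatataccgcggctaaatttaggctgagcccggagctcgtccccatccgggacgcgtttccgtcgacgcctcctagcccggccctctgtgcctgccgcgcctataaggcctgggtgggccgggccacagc

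All motifs were searched on both strands. TGACG was found in 7 of the 8 windows, those of Fos, Fosb, Junb, Atf3, Dusp1, Btg2 and Klf2. Of all 32851 mouse windows of the same length, 17.8% held it. The full palindrome TGACGTCA, which contains TGACG on both strands, was present in Dusp1 and Btg2 and in 1.55% of all windows. In Fos, TGACG began 129 and 66 bases before the start, and in Fosb it began 60 bases before it. Jun held TGACATCA, the AP-1-like site of its own promoter, which 2.93% of all windows held. The EGR site GCGGGGGCG was found in Fosb and Klf2 and in 2.57% of all windows, and a TATAAA box in Fos and in 12.4%. A CArG box, the site of serum response factor, was found in 0 of the 8 windows and in 1.47% of all windows. Sites further upstream, and all sites of Egr1 and Ier2, were outside the search. With TGACG in 7 of the 8 windows, its presence could hardly tell the genes that stood higher in KO from the 1 that stood lower.

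Jun and Junb, the partners of Fos in AP-1, followed the first component rather than genotype. Jun was 28.4, 33.6 and 25.2 in KO 1 to 3, against 26.5, 26.3 and 29.1 in WT 1 to 3. KO 2 and WT 3 held the highest values and KO 3 the lowest. The log2 difference of KO minus WT was 0.08 (SE 0.108; limma, adjusted p = 0.739). It was -0.02 without KO 2 and -0.04 after a correction for GC content. Junb was 0.12, 0.180 and 0.0600 in KO 1 to 3, against 0.0300, 0.0800 and 0.140 in WT 1 to 3, the widest spread of the 10 genes (6.00-fold between WT 1 and KO 2). In both genes all values of KO 1, KO 2 and WT 3 lay above all values of the other libraries. In the GRCm38 annotation, 7.28% of the exonic bases of Jun lie opposite Junos and 7.52% of those of Junb lie opposite Prdx2. Because strand is not recorded by this kit, reads of these partners can enter the values.

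Ier2 and Egr1 respond to serum within minutes, Ier2 as a small nuclear protein and Egr1 as a zinc finger transcription factor. Ier2 was 4.59, 5.38 and 3.42 in KO 1 to 3, against 3.49, 3.44 and 4.90 in WT 1 to 3. As in Jun and Junb, KO 2, WT 3 and KO 1 came first, and KO 3 had the lowest value of all. The log2 difference was 0.14 (SE 0.164; limma, adjusted p = 0.704), 0.02 without KO 2 and -0.09 after GC correction. Within the side of KO 1, KO 2 and WT 3 it was 0.017, and within the other side -0.015. Egr1 was 5.47, 7.5 and 5.41 in KO 1 to 3, against 6.23, 5.93 and 5.95 in WT 1 to 3. Only KO 2 stood above the WT values, while KO 1 and KO 3 lay below all of them. The means (± SD, n = 3 each) of 6.13 ± 1.19 for KO and 6.04 ± 0.165 for WT therefore differed by less than their spread. The log2 difference of Egr1 was 0.01 (SE 0.119; limma, adjusted p = 0.983), and -0.13 without KO 2. It also turned negative under each scaling of the libraries, after GC correction (-0.15) and with the side as a term (-0.02), and its direction is not settled by these data.

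**Figure D2:**
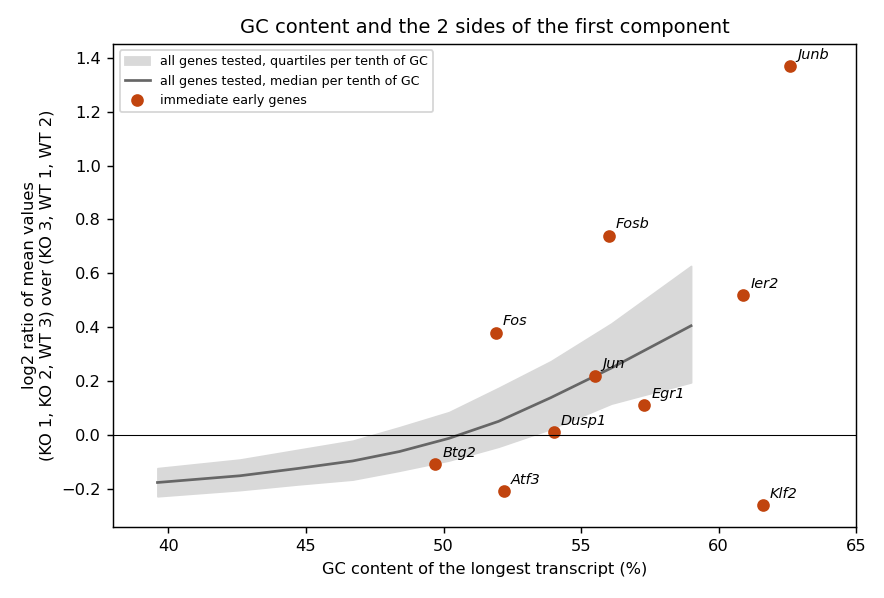
GC content of the longest transcript (horizontal axis, percent) and the log2 ratio of mean values in KO 1, KO 2 and WT 3 over those in KO 3, WT 1 and WT 2 (vertical axis) for the 10 immediate early genes, over the median (line) and quartiles (band) of all genes tested in 10 bins of GC content that hold equal numbers of genes. Junb (62.6% GC), Fosb and Ier2 stand at 1.37, 0.74 and 0.52, and Klf2, with 61.6% GC, stands at -0.26. The band holds only genes with a mean of at least 1, which Fos, Fosb, Junb and Atf3 did not reach.

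The relation of GC content to the sides was uneven within the 10 genes. Transcripts of all 10 genes held between 49.7% (Btg2) and 62.6% GC (Junb). The bin of tested genes with the highest GC content, with a median of 59.0%, had a median log2 ratio between the sides of 0.41. Ier2, at 60.9% GC, had a ratio of 0.52, and Egr1, at 57.3%, one of 0.11. Klf2, at 61.6% GC, was lower on the side where GC-rich genes were high. Among the 10 genes, 3 (Jun, Junb and Ier2) had all values of KO 1, KO 2 and WT 3 above the other libraries, and 0 had them below. Over all genes tested these shares were 19.4% and 15.2%. The part of base composition in these values was not tested beyond the correction.

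Dusp1 encodes a nuclear phosphatase that switches off p38, JNK and ERK and is itself induced by them. Dusp1 was 5.08, 5.79 and 6.61 in KO 1 to 3, against 4.4, 4.68 and 4.93 in WT 1 to 3. Each KO library exceeded each WT library, and KO 3, which was lowest in Jun, Ier2 and Egr1, was the highest here. The means (± SD, n = 3 each) were 5.82 ± 0.764 for KO and 4.67 ± 0.266 for WT, a ratio of 1.25. The log2 difference was 0.26 (SE 0.10), with an unadjusted p of 0.0319 and an adjusted p of 0.469 in limma. It stayed positive in each alternative, between 0.18 and 0.34 when 1 library was left out and at 0.18 after GC correction, with adjusted p between 0.196 and 0.908. Within the side of KO 1, KO 2 and WT 3 it was 0.115, and within the other side 0.458. With groups that did not overlap, neither the sides nor leaving out 1 library could turn it negative. The overlap of its exons with those of Ergic1 on the other strand was 0.332%.

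Atf3, a CREB-family factor induced by stress, and Btg2, an antiproliferative gene induced by p53 and growth factors, gave no separation. Atf3 was 0.718, 1.01 and 1.13 in KO 1 to 3, against 0.996, 0.974 and 0.948 in WT 1 to 3. The WT values were nearly equal and lay within the KO range, so the KO mean was 98.2% of the WT mean. Btg2 was 9.71, 12.7 and 10.6 in KO 1 to 3, against 14.3, 11.9 and 11.7 in WT 1 to 3. KO 1 and KO 3 were below all WT values, and KO 2 lay among them. The log2 difference of Btg2 was -0.18 (SE 0.117; limma, adjusted p = 0.511), and it was negative in each alternative, between -0.28 and -0.10 when 1 library was left out. Without KO 2, 6 of the 10 genes had groups that did not overlap, with Egr1 and Btg2 added, both lower in KO. In that setting 26.5% of all genes tested were apart.

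Klf2 is a zinc finger factor that blood flow induces in endothelium through the MEKK3, MEK5 and ERK5 kinases. Klf2 was 1.26, 0.969 and 1.41 in KO 1 to 3, against 1.43, 1.59 and 1.47 in WT 1 to 3. Each KO value was below each WT value, by a small margin between KO 3 and WT 1, and KO 2, the highest library in most other genes, was the lowest here. The Klf2 means (± SD, n = 3 each) were 1.21 ± 0.223 for KO and 1.5 ± 0.0796 for WT, so that KO stood at 80.9% of WT. The log2 difference was -0.18 (SE 0.097; limma, adjusted p = 0.479). After GC correction it was -0.42 (SE 0.18), with an adjusted p of 0.611. Without 1 library it lay between -0.24 and -0.10.

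Endothelial markers did not go the same way as Klf2. Of 10 endothelial markers tested, 9 averaged higher in KO, and 5 (Pecam1, Cdh5, Tie1, Cldn5 and Esam) had all KO values above all WT values. Over all genes tested, 53.5% averaged higher in KO and 7.67% had groups apart in this way. In limma 0 of the 10 markers passed over all genes (lowest adjusted p 0.469), and 5 were higher at an unadjusted p of 0.05, as were 5.89% of all genes tested. The summed level of the 10 markers was 116 to 138 in KO and 101 to 105 in WT, and 0 markers lay at the floor. The part of endothelial cells in the values of Klf2, Fos and Dusp1 was not tested. In bulk tissue, fewer cells of a type and less RNA per cell cannot be told apart. The summed level of 7 neutrophil markers was also apart, at 3.43 to 5.89 in KO and 13.0 to 45.2 in WT, again not tested as to its part in these genes. The other 7 marker lists, of mesenchyme, epithelium, leukocytes, red cells, mesothelium, mural cells and neurons with glia, had sums that overlapped between KO and WT. By single genes, 5 of 7 tested leukocyte markers averaged higher in KO and 2 lower (median log2 change 0.231, beside 0.250 for endothelium). In limma 0 of these leukocyte markers passed, and 3 were higher at an unadjusted p of 0.05. Cd68 and Tyrobp had all KO values above all WT values.

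Among 14 tested genes of the KLF family and of the flow response, 12 averaged higher in KO and 2 lower (median log2 change 0.14). In limma 0 passed over all genes (lowest adjusted p 0.469), and 3 were higher at an unadjusted p of 0.05, as were 5.89% of all genes tested. Mapk7, which encodes ERK5, was 16.8, 16.8 and 14.5 in KO 1 to 3, against 10.3, 10.1 and 13.8 in WT 1 to 3, a log2 difference of 0.47 (SE 0.124). Map3k3, which encodes MEKK3, was 13.9, 15.9 and 15.4 in KO, against 12.9, 12.7 and 12.3 in WT, a difference of 0.23 (SE 0.075), with an adjusted p of 0.469 each in limma. Both kinases had all KO values above all WT values, as had 7.67% of all genes tested, while all Klf2 values were lower in KO.

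**Figure D3:**
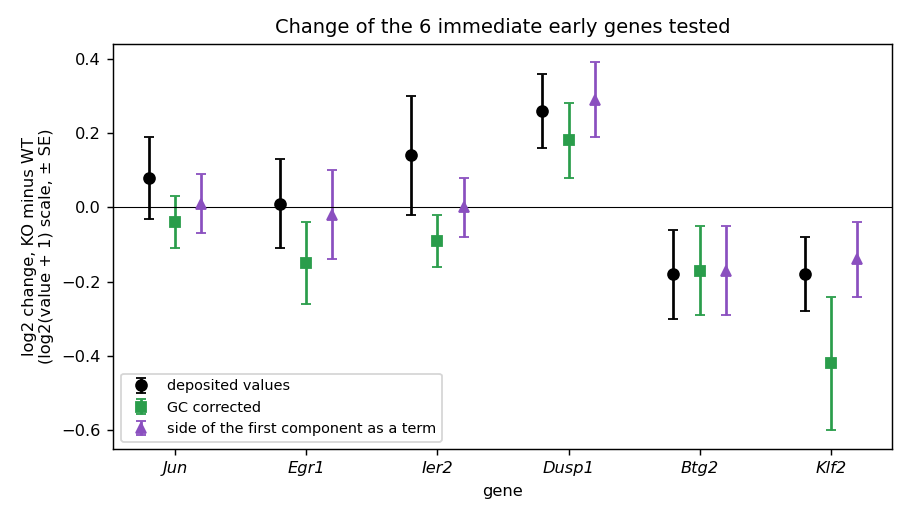
Log2 change of KO minus WT on the log2(value + 1) scale (vertical axis, ± SE) for the 6 immediate early genes tested, from the deposited values (circles), after GC correction (squares) and with a term for the side of the first component (triangles). Dusp1 lies above 0 and Btg2 and Klf2 below 0 in all 3 fits, while Jun, Egr1 and Ier2 cross 0.

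Read per library, the 10 genes set KO 2 apart rather than one genotype. KO 2 was the highest library in 6 of the 10 genes (Fos, Fosb, Jun, Junb, Egr1 and Ier2), second in Atf3, Dusp1 and Btg2, and lowest in Klf2. Among all genes tested, of any GC content, KO 2 was the highest library in 30.9%. KO 2 also had the highest Spearman's rho with GC content of all libraries, 0.61. KO 1 and WT 3 were highest in 0 of the 10, and WT 1 and WT 2 in 1 each. The mean deviation of the 10 genes from their own means, on the log2(value + 1) scale, was -0.046, 0.116 and -0.014 in KO 1 to 3, against -0.038, -0.040 and 0.022 in WT 1 to 3. KO 2 thus stood above the other libraries, KO 3 lay within the range of WT, and KO 1 was the lowest library, just below WT 2. On a log2 scale without a pseudocount, which gives the low genes more weight, the deviations were 0.020, 0.353 and 0.037 in KO 1 to 3, against -0.316, -0.174 and 0.080 in WT 1 to 3. WT 1 and WT 2 were then lowest, and WT 3 lay above KO 1 and KO 3.

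KO 2 also held more pancreatic epithelium signal. The summed level of 8 epithelial markers was 571, 679 and 450.0 in KO 1 to 3, against 562, 485 and 599 in WT 1 to 3. Summed red cell markers were 1221, 575 and 739 in KO 1 to 3, against 717, 619 and 1025 in WT 1 to 3, lowest in KO 2. The parts of tissue composition and of base composition in the height of KO 2 were not tested. The genes outside the lists whose profile over the 6 libraries was closest to the mean of the 10 (root mean square difference of 0.0139 to 0.0197 in log2 units) were Rad9b, Tceanc2, Fam104a, Nsg2 and Nop16. Fam104a, for example, was 20.0, 22.7 and 20.2 in KO 1 to 3, against 20.5, 20.2 and 20.8 in WT 1 to 3, so likeness here means a peak in KO 2 and little else.

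**Figure D4:**
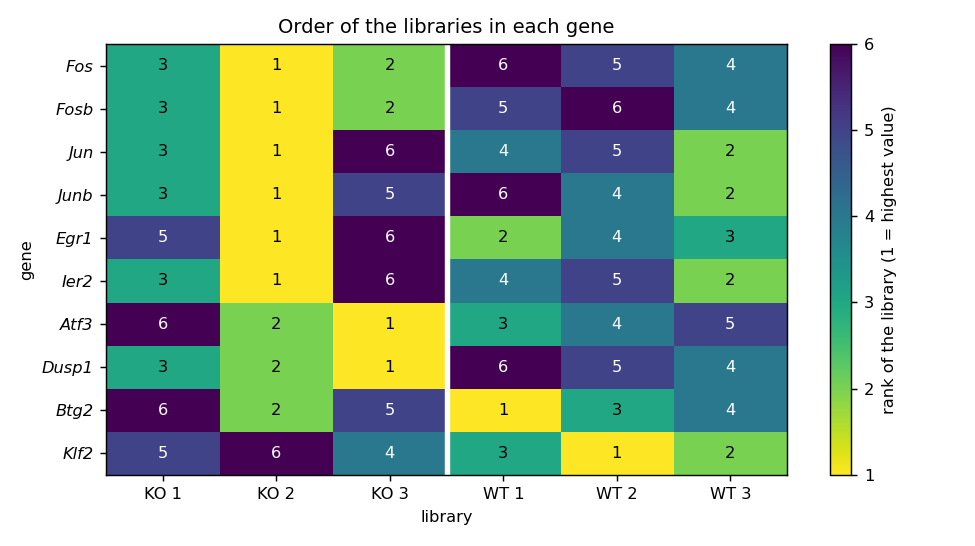
Rank of each library (columns, KO 1 to 3 left of WT 1 to 3) in each immediate early gene (rows), where 1 is the highest of the 6 values. KO 2 ranks first in 6 genes, Fos and Fosb hold ranks 1 to 3 in KO, and Klf2 holds ranks 1 to 3 in WT.

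Other immediate early transcription factors gave the same picture of small differences. Of 20 listed, 18 were measured and 13 tested, of which 9 averaged higher and 4 lower in KO (median log2 change 0.059). In limma 0 passed over all genes, with 1 at an unadjusted p of 0.05, where 10.3% of all genes tested were called in either direction. After GC correction 6 were higher and 7 lower, with a median of -0.016. Klf10, a factor induced by TGF-beta, was 16.2, 17.6 and 17.6 in KO 1 to 3, against 21.6, 19.0 and 19.1 in WT 1 to 3. Csrnp1, a nuclear protein induced by axin, was 1.25, 1.46 and 1.43 in KO, against 0.902, 0.876 and 1.31 in WT, with overlapping groups. The orphan receptor Nr4a1, below the filter and chosen after its values were seen, was 0.531, 0.810 and 0.598 in KO 1 to 3, against 0.441, 0.410 and 0.505 in WT 1 to 3. It shared with Fos a KO 2 peak and groups that did not overlap. All KO values also lay above all WT values in 7.55% of genes with a mean under 1. Fosl1, Egr2, Egr3 and Nr4a3, also below the filter, had overlapping groups, and Nr4a3 averaged 85.1% of WT.

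Of 18 tested immediate early genes for signalling and secreted proteins, 10 averaged higher in KO and 8 lower. In limma 0 passed over all genes and 1 had an unadjusted p under 0.05, as had 10.3% of all genes tested. Gadd45a, a growth arrest gene induced by DNA damage, was 11.3, 13.8 and 12.7 in KO 1 to 3, against 20.2, 18.3 and 16.3 in WT 1 to 3. Each KO value lay below each WT value, as in 8.77% of all genes tested. The log2 difference was -0.50 (SE 0.103), with an unadjusted p of 0.00153 and an adjusted p of 0.469 in limma. The kinase gene Pim1 was 2.04, 2.20 and 2.31 in KO, against 1.71, 1.84 and 1.91 in WT, a difference of 0.18 (SE 0.078).

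Of 21 tested feedback inhibitors, which include the phosphatases, Sprouty proteins and mRNA decay factors that end the response, 13 averaged higher in KO and 8 lower. In limma 0 passed over all genes, and 2 had an unadjusted p under 0.05, 1 in each direction. Over all genes tested, 5.89% were called as higher and 4.36% as lower at that p. Nab2, a corepressor that binds EGR proteins and is induced by them, was 7.10, 8.11 and 9.31 in KO 1 to 3, against 4.80, 5.06 and 6.22 in WT 1 to 3. All its KO values lay above all WT values, as in 7.67% of all genes tested. The log2 difference was 0.53 (SE 0.121), with an unadjusted p of 0.00287 and an adjusted p of 0.469 in limma. Egr1 itself differed by 0.01. Zfp36l2, an mRNA decay factor, was 27.1, 26.8 and 28.9 in KO, against 32.5, 34.2 and 29.4 in WT.

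The factors and kinases upstream of these genes were measured as well. Of 12 tested genes for serum response factor, its partners and the CREB family, 10 averaged higher in KO (median log2 change 0.098), and 0 passed limma (0 at an unadjusted p of 0.05). Srf was 5.66, 7.22 and 5.73 in KO 1 to 3, against 4.24, 4.44 and 5.92 in WT 1 to 3, so that WT 3 lay among the KO values. Crtc1, a CREB coactivator, was 3.96, 4.80 and 3.71 in KO, against 3.03, 3.00 and 4.28 in WT. Of 21 tested genes of the ERK, p38 and JNK cascades, 13 were higher and 8 lower in KO. In limma 0 passed and 2 had an unadjusted p under 0.05, as had 10.3% of all genes tested. Map2k7, an activator of JNK, had a mean (± SD, n = 3 each) of 64.7 ± 6.36 for KO and 53.2 ± 6.08 for WT. All its KO values lay above all WT values, as in 7.67% of all genes tested.

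Heat shock genes answer to temperature and to unfolded protein, and were listed as a second view of handling. Of 17 measured, Hspa1a and Hspa1b lay below the filter. Their groups overlapped, with ratios of KO to WT means of 0.863 for Hspa1a and 1.58 for Hspa1b. Of 15 tested, 4 averaged higher in KO and 11 lower, and the median log2 change was -0.074. In limma 0 passed over all genes, 5 were lower at an unadjusted p of 0.05 and 0 higher, where 4.36% of all genes tested were lower and 5.89% higher. Hsph1, a large chaperone, was 23.1, 31.6 and 24.6 in KO 1 to 3, against 37.5, 35.5 and 34.0 in WT 1 to 3. Hsp90aa1, the inducible form of HSP90, was 344, 379 and 326 in KO, against 443, 425 and 413 in WT. Both had all KO values below all WT values, with log2 differences of -0.43 (SE 0.117) and -0.29 (SE 0.081) and an adjusted p of 0.469 each in limma. The list median was -0.064 after GC correction and -0.136 without KO 2.

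Targets of the integrated stress response, through which ATF4 induces Atf3, numbered 10 tested, 7 higher and 3 lower in KO (median log2 change 0.087). In limma 0 passed over all genes, with 1 at an unadjusted p of 0.05, where 10.3% of all genes tested were called in either direction. Ddit4, an mTOR inhibitor, was 16.3, 18.8 and 19.2 in KO 1 to 3, against 16.2, 12.9 and 15.0 in WT 1 to 3. Ppp1r15a, the phosphatase subunit GADD34, was 7.99, 10.5 and 9.77 in KO, against 7.90, 8.22 and 7.71 in WT. Of 9 tested p53 targets, the group to which Btg2 also belongs, 3 were higher and 6 lower in KO, with 0 past limma and 0 at an unadjusted p of 0.05. Cdkn1a, the cell cycle inhibitor p21, was 18.3, 24.4 and 17.9 in KO 1 to 3, against 26.2, 22.5 and 23.3 in WT 1 to 3. Trp53inp1 was 21.9, 18.1 and 23.2 in KO, against 24.9, 26.1 and 22.0 in WT. Neither gene had groups that stood apart.

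Genes often used as constant references showed how far unrelated transcripts differed. Of 12 tested, 5 averaged higher in KO and 7 lower (median log2 change -0.030). In limma 0 passed and 1 had an unadjusted p under 0.05, as had 10.3% of all genes tested. Hprt, an enzyme of purine salvage, was 33.4, 32.2 and 31.6 in KO 1 to 3, against 42.7, 38.5 and 37.8 in WT 1 to 3, a log2 difference of -0.28 (SE 0.072).

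**Figure D5:**
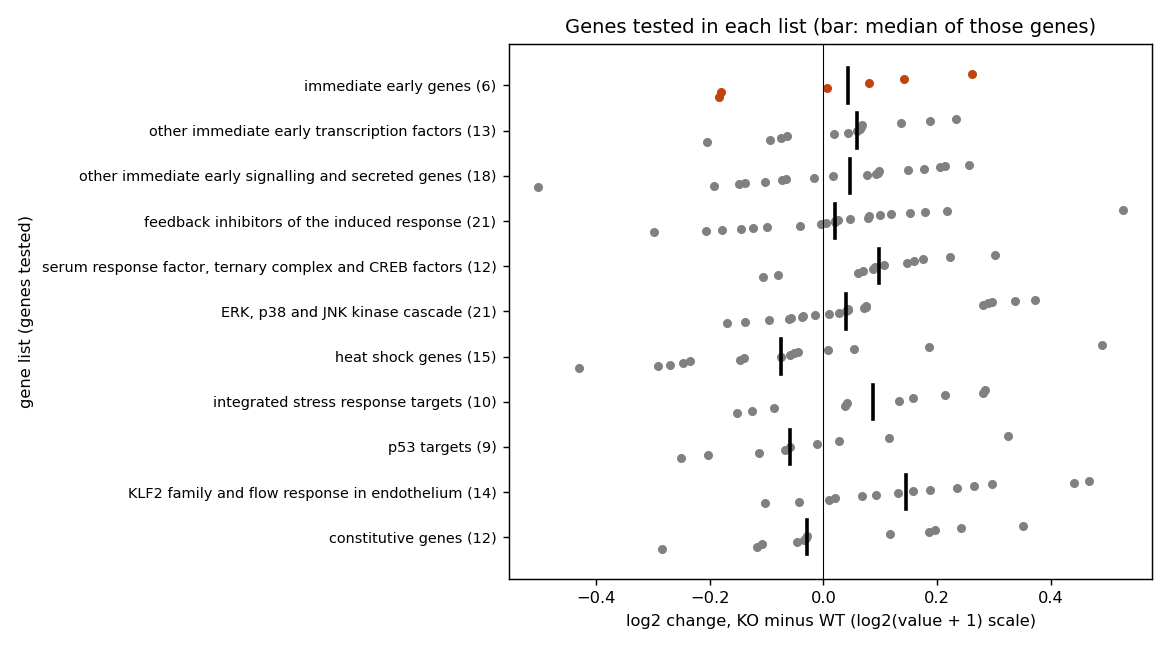
Log2 change of KO minus WT on the log2(value + 1) scale (horizontal axis) for each tested gene of the immediate early genes and the 10 related lists (rows, number of genes in brackets), with the median of each row as a bar. The 6 immediate early genes lie between -0.18 and 0.26, with a median of 0.044, inside the spread of the constitutive genes in the last row.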

How the data were processed

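RNA of 6 libraries (3 Bicc1 KO, 3 WT) was made into TruSeq RNA v2 libraries from 500 ng of RNA, per the labels' protocols. The submitters' processing notes name CASAVA 1.82, Bowtie 0.12.7 and build mm9. How reads were counted and normalized is not given in the sources used. For 24389 Ensembl identifiers the authors deposited a signal that is never negative, in a unit they do not state, and 92.8% of identifiers were paired with a symbol. No identical libraries were found, and Pearson's r of log2 values between libraries was 0.990 to 0.998.

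Members and lists were chosen with earlier results of these data known. Values were used as deposited. Genes with a mean of at least 1 (13911) were tested with limma 3.58.1 (R 4.3.3) on log2 of the value plus 1 (group alone in the model, trended variance, two-sided, Benjamini-Hochberg, threshold 0.05). Such fold changes understate the change of low genes. GC content is that of the longest GENCODE transcript (GRCm38), known for 96.2% of tested genes, and was corrected by loess (span 0.3). Named were all 10 genes, Bicc1, the 2 genes of lowest p in each list where none passed, the 5 genes closest in profile, and others as stated. Some of these are not reported here. Alternatives were 3 scalings, robust moderation, a pseudocount of 0.1, no filter, a filter that asks for 1 or more in any 3 libraries, an adjusted p of 0.10, GC correction, the side of the first component, a replicate block and leaving out each library. Scripts were tested on simulated data. Python 3.11.15 was used for tables and figures.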

Additional observations from a re-analysis of the deposited data

How the results depend on the processing

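In each of the 19 alternatives run for them, 0 of the immediate early genes and 0 of the related lists' genes passed limma at an adjusted p of 0.05 (or 0.10). Dusp1, Btg2 and Klf2 kept their direction in all 19, but many of these could not change it. The other filters, robust moderation, the replicate block alone and the looser threshold leave the log2 change as it was. For Dusp1 and Klf2, whose groups did not overlap, leaving out 1 library cannot reverse it. The log2 change of Egr1 reversed under median ratio, total and upper quartile scaling (-0.000330, -0.00350 and -0.00566), with the side as a term (-0.0237) and after GC correction with or without the replicate block (-0.153), and ranged from -0.127 to 0.0765 with 1 library left out. That of Jun reversed after GC correction with or without the block (-0.0357) and without KO 2 (-0.0246, up to 0.175 without another library). That of Ier2 reversed after GC correction with or without the block (-0.0850). That of Atf3, with no filter and a pseudocount of 0.1, reversed with the side as a term (0.0243) and ranged from -0.168 to 0.128 with 1 library left out. The cause was not tested. The median over all 10 genes was 0.127 with a pseudocount of 0.1, by that setting's greater weight on low genes, and ranged from -0.008 to 0.082 with 1 library left out. The median of the 6 tested genes was 0.044, and -0.119 after GC correction. Scaling shifted the median of all genes by at most 0.0118.

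The count of genes past the threshold was 2 in the main test, 1 with no filter at either pseudocount, 1 to 7 with 1 library left out (7 without KO 2) and 0 with the replicate block, with or without GC correction. Under the block the log2 change of Bicc1 was -1.89 (adjusted p 0.0880), and with GC correction -1.86 (0.0621). Leaving out 1 library gave -1.95 to -1.82. The labels do not say that the replicate numbers pair the samples. Same-numbered KO and WT libraries deviated in opposite directions over genes (correlations of -0.22, -0.40 and -0.64). These values cannot decide whether samples were paired, since the first component makes up 57.3% of the variance between libraries. The block also leaves fewer degrees of freedom. Depth is unknown, and values near the floor of 0.01, as in Fosb and Junb, limit what can be detected.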
